A study of Mus musculus with 6 samples.

Results

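Fatty acid elongases and desaturases lengthen, and put double bonds into, the acyl chains that a cell makes or takes up. The 9 genes described here are the elongases Elovl1, Elovl3, Elovl4, Elovl5, Elovl6 and Elovl7 and the desaturases Fads1, Fads2 and Fads3, taken by name among the 18193 genes that the arrays measured. A total of 26 probe sets, of 34945 that carried 1 gene in the array's annotation, were annotated to 1 of these symbols alone. The brightest probe set of a gene, averaged over the 6 arrays, stands for that gene, and its other probe sets are described beside it.

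RNA came from inguinal white adipose tissue, the subcutaneous fat of the groin, of 3 Naa10-KO and 3 WT male mice, each mouse having an array of its own. The Naa10 protein catalyses the acetylation of protein N-termini, and the labels name the knockout without a promoter, a Cre line or an extent of the deletion. Mice of both genotypes ate a high-fat diet with 60% of its calories from fat for 15 weeks from the age of 6 weeks, and all spent the last 4 h at 4 °C. The comparison therefore sets Naa10-KO against WT in fat of mice on that diet in the cold, with no group at room temperature or on another diet. According to its title, the study asked whether Naa10 holds back heat production by beige adipocytes, the heat-producing fat cells that form in this depot in the cold.

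An Elovl protein is a membrane enzyme of the endoplasmic reticulum that adds carbon atoms from malonyl-CoA to an acyl-CoA. It carries out the condensation that limits the rate of the elongation cycle, and the family members differ in the chain they accept. Fads1 and Fads2 place double bonds into polyunsaturated chains and, with Elovl5, turn dietary linoleate and α-linolenate into arachidonate and its omega-3 counterparts. In fat these enzymes shape the triglyceride store and the membranes, and Elovl3 is known in rodent brown fat as one of the genes most strongly induced by cold.

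Values are log2 signals as the authors deposited them, so a difference of 1 is a doubling. No detection calls were used, so signals under the median of all deposited values, 5.86, are called low, and that value is the mark used here. Levels of different genes are not compared, because each probe set has its own brightness. Any pair of arrays correlated at 0.903 to 0.917, which leaves no duplicated array. Mean signals of 10 adipocyte markers lay between 13.9 and 14.2 on the Naa10-KO arrays and between 14.0 and 14.4 on the WT arrays, which matches the labelled tissue. Skeletal muscle RNA was unevenly present, with means over 18 muscle genes of 11.2, 11.1 and 11.4 on Naa10-KO replicates 1 to 3, against 5.28, 5.70 and 8.38 on WT replicates 1 to 3. All 18 had higher means in Naa10-KO, and none was under the mark on all arrays. In bulk tissue, fewer cells of a type and less RNA per cell cannot be told apart. Naa10-KO replicate 1 also stood apart in its Gapdh control probe sets, with a 3' minus 5' difference of 0.55 against -0.27 to 0.01 on the other arrays. Naa10 itself was not analysed here, since the annotation used assigned it no probe set, so the genotype labels were not checked against the targeted transcript.

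None of the 9 genes differed between Naa10-KO and WT fat at an adjusted p of 0.05 in limma, fitted and adjusted over all genes, where 0.115% of genes passed (0.0879% higher and 0.0275% lower). Adjusted p-values of the 9 lay between 0.540 and 0.949. At an unadjusted p of 0.05, 1 of the 9 passed, Elovl7, against 9.2% of all genes. Means were higher in Naa10-KO for 4 members and lower for 5, against 9349 higher and 8844 lower of all 18193 genes. The median log2 difference of the members was -0.03, against 0.01 over all genes, and the median of their absolute differences was 0.51, against 0.29 over all genes. The lowest Naa10-KO array exceeded the highest WT array for 1 member, Elovl7, and the groups were apart in the opposite sense for 2, Fads2 and Fads3. Over all genes the shares were 10% above and 8.14% below.

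**Figure D1:**
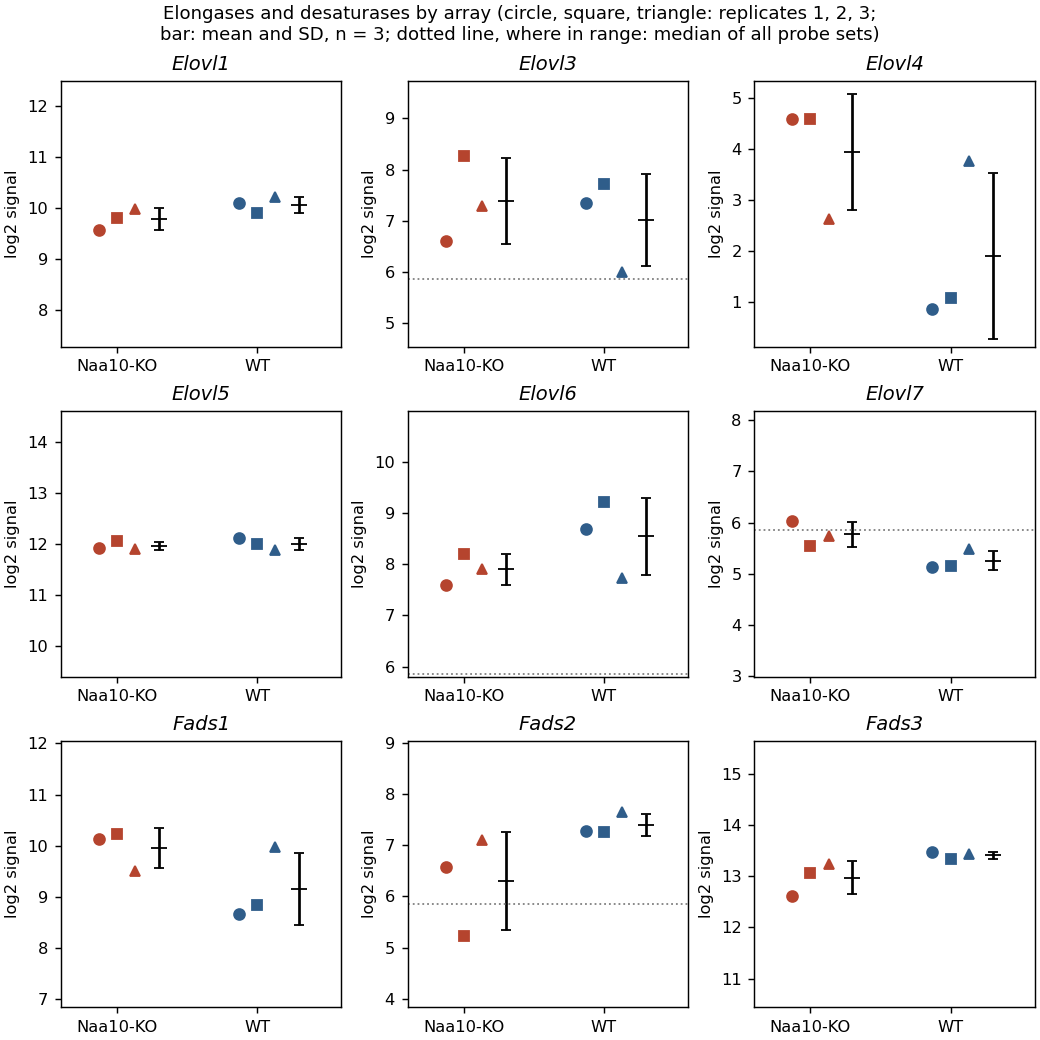
Log2 signal of each gene on the 3 Naa10-KO arrays (red, left) and the 3 WT arrays (blue, right), with 1 point per mouse and the mean ± SD beside each group; every panel spans the same number of log2 units. The groups are apart for Elovl7, Fads2 and Fads3, and WT replicate 3 (triangle) lies among the Naa10-KO arrays for Fads1, Elovl4 and Elovl6.

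Fads2 makes the first double bond in the path from linoleate and α-linolenate. Its log2 signal was 6.57, 5.23 and 7.10 on the Naa10-KO arrays, against 7.28, 7.26 and 7.64 on the WT arrays. All Naa10-KO arrays were below all WT arrays, by a gap of 0.16, and Naa10-KO replicate 2 was the lowest of the 6 and the only one under the mark for low signal. Means were 6.30 ± 0.96 in Naa10-KO and 7.39 ± 0.22 in WT (SD, n = 3 each), 2.13-fold lower in Naa10-KO, with a log2 difference of -1.09 (SE 0.51, 95% interval -2.36 to 0.18, limma adjusted p = 0.584). Without Naa10-KO replicate 2 the difference was -0.56. Of the other probe sets of Fads2, 1419031_at had means of 6.04 in Naa10-KO and 5.70 in WT, with overlapping groups, and 1443838_x_at lay near 1 on every array. The direction for Fads2 therefore rests on 1 probe set, 1449325_at, and the probe set closest to it in signal had the opposite sign.

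Fads3, known to desaturate the sphingoid base of ceramides rather than a free polyunsaturated acid, gave 12.62, 13.07 and 13.24 on the Naa10-KO arrays. On the WT arrays it gave 13.47, 13.34 and 13.43. The Naa10-KO arrays were all lower, by a gap of 0.10, and replicate 1 was the lowest. The log2 difference was -0.44 (SE 0.20, 95% interval -0.95 to 0.07, limma adjusted p = 0.584), which is 1.36-fold lower in Naa10-KO. Both further probe sets of Fads3 also had lower means in Naa10-KO. The first, 1449219_at, was at 8.15, 9.61 and 9.85 in Naa10-KO, against 10.31, 10.32 and 10.53 in WT (log2 difference -1.18, limma adjusted p = 0.681 over all probe sets). The second, 1435910_at, differed by -0.46, and its groups overlapped.

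On all 3 Fads3 probe sets the lowest of the 6 arrays was Naa10-KO replicate 1, the array with the raised Gapdh 3' minus 5' difference. Without it, the difference of Fads3 was -0.26. The groups stayed apart by construction, since leaving out an array cannot make separate groups overlap. In that fit groups were apart in 25.6% of all genes. Of the 12 member probe sets with no array below the mark, 8 were lowest on Naa10-KO replicate 1, a position that array held in 24.7% of all such probe sets. Probe sets of 1 gene share its transcripts, so these are not 8 separate observations. The part of RNA quality in the Fads3 difference was not tested.

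The promoters of Fads2, Fads3 and Elovl7 are shown as those of the members whose genotype groups did not overlap. None of these genes passed the test, and groups were apart in 18.1% of all genes. The set also changed with the processing, to Fads2 and Fads3 after quantile normalization and to Fads1, Elovl6 and Fads3 with the mean of all probe sets. The windows run from 250 bases before to 50 bases after the annotated start (RefSeq, GRCm38.p6), 5′ to 3′ on the strand of the gene. They are Fads2 at chr19:10101454-10101753 on the minus strand, Fads3 at chr19:10041298-10041597 on the plus strand and Elovl7 at chr13:108214154-108214453 on the plus strand. Capitals mark matches, on either strand, to CCAAT (read as ATTGG on the other strand), the core bound by NF-Y, and to GGGCGG (read as CCGCCC), the core bound by Sp1.

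Fads2: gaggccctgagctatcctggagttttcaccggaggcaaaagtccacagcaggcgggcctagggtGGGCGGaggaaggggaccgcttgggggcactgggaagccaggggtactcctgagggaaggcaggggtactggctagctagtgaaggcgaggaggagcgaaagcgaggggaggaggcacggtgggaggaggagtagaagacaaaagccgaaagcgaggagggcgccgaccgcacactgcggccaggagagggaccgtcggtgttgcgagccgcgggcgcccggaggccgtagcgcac

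Fads3: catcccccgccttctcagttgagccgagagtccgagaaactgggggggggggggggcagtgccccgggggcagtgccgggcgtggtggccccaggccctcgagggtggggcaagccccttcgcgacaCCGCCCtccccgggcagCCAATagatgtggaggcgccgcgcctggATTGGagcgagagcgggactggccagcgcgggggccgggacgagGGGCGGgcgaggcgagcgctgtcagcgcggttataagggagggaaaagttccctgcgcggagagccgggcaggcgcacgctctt

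Elovl7: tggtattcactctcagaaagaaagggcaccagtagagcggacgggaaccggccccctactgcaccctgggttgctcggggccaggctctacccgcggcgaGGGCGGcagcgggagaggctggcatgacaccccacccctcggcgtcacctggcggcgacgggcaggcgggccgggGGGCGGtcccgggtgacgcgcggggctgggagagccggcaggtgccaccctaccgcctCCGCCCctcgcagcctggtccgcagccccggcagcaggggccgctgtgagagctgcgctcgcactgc

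Both Fads3 and Elovl7 held more than 1 GGGCGG match, with 2 and 3, whereas Fads2 held 1. CCAAT was matched in Fads3 alone of these, with 2 matches. Neither motif overlapped the other in these windows. The windows of all 7 members in the promoter table, which did not list Elovl3 or Fads1, held CCAAT in 4 and GGGCGG in 5. Over 32851 promoter windows of the same length, 37.4% held CCAAT and 35.7% held GGGCGG. Fads1, Fads2 and Fads3 lie in 1 cluster on chromosome 19, with no other protein-coding gene between them in the RefSeq table.

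Fads1 makes the later double bond that completes arachidonate. It ran the other way, with 10.13, 10.22 and 9.51 on the Naa10-KO arrays against 8.67, 8.83 and 9.97 on the WT arrays. WT replicate 3 lay inside the range of the Naa10-KO arrays, so the groups overlapped. Means were 9.96 ± 0.39 in Naa10-KO and 9.16 ± 0.71 in WT (log2 difference 0.80, SE 0.42, 95% interval -0.26 to 1.86, limma adjusted p = 0.603), 1.74-fold higher in Naa10-KO. The other Fads1 probe set, 1440444_at, had a difference of 0.35. Without WT replicate 3, the WT array with the most muscle signal, the Fads1 difference was 1.21 (limma adjusted p = 0.374) and the groups no longer overlapped. The part of muscle RNA in these values was not tested.

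Within an array, the log2 difference of Fads1 minus Fads2 was 3.56, 4.99 and 2.41 in Naa10-KO, against 1.39, 1.58 and 2.32 in WT. The groups were apart by a small margin between Naa10-KO replicate 3 and WT replicate 3, and the genotype difference was 1.89. In alternatives chosen after seeing the data, it was 0.47 with overlapping groups when 1419031_at stood for Fads2, and 1.22 without Naa10-KO replicate 2. It was 1 of 5 such pairs of enzymes, chosen with results of these data known, and Elovl5 acts between Fads2 and Fads1. An exact permutation test of 3 against 3 arrays, 2-sided, cannot give less than 0.1, and it gave p = 0.1 for Fads1 minus Fads2 (adjusted p = 0.25 over the 5 pairs). Elovl5 minus Fads2 differed by 1.06 and Fads1 minus Elovl5 by 0.83, both with overlapping groups and an exact p of 0.2.

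Among the elongases of polyunsaturated chains, Elovl5 showed the smallest difference of the 9 members. It lengthens the product of Fads2 before Fads1 acts on it. Its log2 signal was 11.93, 12.06 and 11.91 in Naa10-KO, against 12.12, 12.00 and 11.88 in WT. The groups overlapped and spanned only 0.15 in Naa10-KO and 0.24 in WT. The 95% interval of the difference ran from -0.39 to 0.32 (difference -0.03, SE 0.14, limma adjusted p = 0.949). The second Elovl5 probe set differed by -0.14.

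Elovl4, which builds the ultra-long chains of retina, skin and brain, had low signal on every array. Values were 4.59, 4.60 and 2.63 in Naa10-KO, against 0.87, 1.08 and 3.78 in WT, all below the mark. The difference of 2.03 was the largest of the 9 in size, with an SE of 0.99 and an adjusted p of 0.595 in limma, and the groups overlapped. The other Elovl4 probe set, low as well, differed by -0.55, and the mean of both by 0.74. Whether Elovl4 was expressed in this tissue cannot be read from these signals.

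Elovl6 takes the palmitate made by fatty acid synthase to stearate and so supplies the substrate of the stearoyl-CoA desaturases. It was at 7.59, 8.20 and 7.91 in Naa10-KO, against 8.69, 9.21 and 7.74 in WT. The Naa10-KO arrays were lower than WT replicates 1 and 2, and WT replicate 3 sat among them. Means were 7.90 ± 0.31 in Naa10-KO and 8.55 ± 0.75 in WT, 1.57-fold lower in Naa10-KO (log2 difference -0.65, SE 0.42, 95% interval -1.71 to 0.41, limma adjusted p = 0.660). A second well-measured probe set, 1417403_at, differed by -0.55 and also overlapped. The third, 1442656_at, was below the mark on all arrays, with 3.94, 1.98 and 1.13 in Naa10-KO and 5.44, 5.06 and 5.41 in WT. All 3 probe sets thus had lower means in Naa10-KO, the last of them with a difference of -2.95 at low signal.

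Without WT replicate 3 the Elovl6 difference was -1.05 (limma adjusted p = 0.429) and all Naa10-KO arrays were below both remaining WT arrays. Without WT replicate 2, the array with the highest Elovl6, the difference was -0.32 (limma adjusted p = 0.867). Without Naa10-KO replicate 1, the array with the lowest Elovl6 and the raised Gapdh 3' minus 5' difference, it was -0.49 (limma adjusted p = 0.858). In the fit without WT replicate 3, 6 of the 9 members had groups apart, with Elovl4, Fads1 and Elovl6 added to the 3 named above, while groups were apart in 31.7% of all genes. Leaving out Naa10-KO replicate 3 also gave 6 members apart, against 31.3% of all genes, with Elovl4, Fads1 and Elovl1 added. Leaving out both WT replicate 3 and Naa10-KO replicate 1, a fit added after the data were seen, gave 6 members against 42.8% of all genes. WT replicate 3 lay nearer to the Naa10-KO mean than to the mean of the other WT arrays for 6 of the 9 members, and for 50.1% of all genes. The parts of muscle RNA and of RNA quality in the Elovl6 values were not tested.

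**Figure D2:**
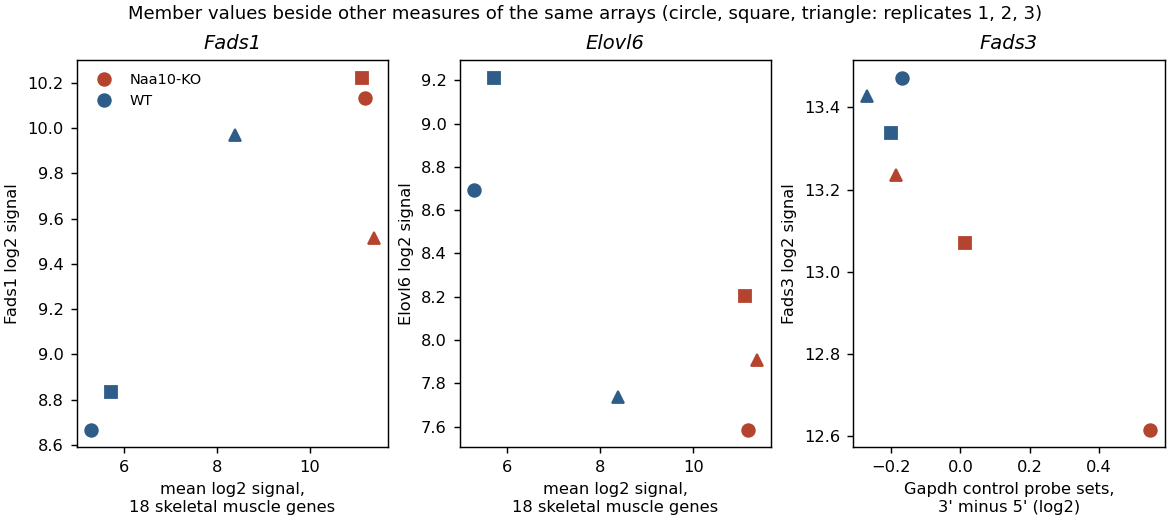
Log2 signal of Fads1 and Elovl6 against the mean log2 signal of 18 skeletal muscle genes, and of Fads3 against the 3' minus 5' log2 difference of the Gapdh control probe sets, with 1 point per array. WT replicate 3, with a muscle mean of 8.38, lies apart from the other WT arrays for Fads1 and Elovl6, and Naa10-KO replicate 1, with a Gapdh difference of 0.55, is the lowest for Fads3.

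Elovl3, an elongase of saturated and monounsaturated very long chains, varied more within genotypes than between them. Its single probe set gave 6.60, 8.27 and 7.28 in Naa10-KO and 7.34, 7.72 and 6.00 in WT. The groups overlapped almost entirely, spanning 1.67 in Naa10-KO and 1.72 in WT. The log2 difference was 0.36, with an SE of 0.63 and a 95% interval from -1.21 to 1.94, which holds a difference of 1 in either direction. The difference turned negative without WT replicate 3 (-0.15) and without Naa10-KO replicate 2 (-0.08). Over the same arrays, the mean signal of 11 brown and beige fat markers was 8.58, 9.26 and 8.29 in Naa10-KO, against 6.74, 7.06 and 6.40 in WT. Of these 11 markers, 8 had the higher mean in Naa10-KO, and Dio2 and Cpn2 were under the mark on all arrays. Within each genotype the array with the highest mean over those markers, replicate 2, was also the array with the highest Elovl3. The lowest arrays matched in WT, on replicate 3. In Naa10-KO they did not, with the lowest marker mean on replicate 3 and the lowest Elovl3 on replicate 1. Between genotypes the marker means were apart, whereas Elovl3 overlapped. Whether Elovl3 follows these markers was not tested. All 18 muscle genes had higher means in Naa10-KO as well, and the part of muscle RNA in the brown and beige marker means was not tested.

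Elovl1, the main elongase of saturated very long chains for sphingolipids, was at 9.56, 9.81 and 9.99 in Naa10-KO and 10.09, 9.90 and 10.21 in WT. The groups overlapped, and the log2 difference was -0.28 (SE 0.18, 95% interval -0.73 to 0.17, limma adjusted p = 0.659). Without Naa10-KO replicate 1, the lowest array, it was -0.17. Of its 4 probe sets, 3 had lower means in Naa10-KO. In 1 of these, 1425676_a_at, the arrays of the genotypes were apart, with 7.47, 8.08 and 8.18 in Naa10-KO and 8.25, 8.39 and 8.63 in WT (log2 difference -0.51, limma adjusted p = 0.715 over all probe sets). The exception, 1443820_x_at, was higher by 0.28 and lay close to the mark.

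Elovl7, a close relative of Elovl1 that also lengthens saturated chains, gave 6.03, 5.54 and 5.74 in Naa10-KO, against 5.14, 5.15 and 5.48 in WT. The Naa10-KO arrays were all higher, by a gap of 0.07, but 5 of the 6 values lay under the mark for low signal. The log2 difference was 0.51 (SE 0.20, 95% interval 0.02 to 1.01, unadjusted p = 0.0434, limma adjusted p = 0.540). Its 5 other probe sets were below the mark on all arrays and did not share a direction, with differences from -2.41 to 0.31. The most negative difference was that of 1440312_at, which had its groups apart the other way, at 3.87, 2.31 and 2.48 in Naa10-KO and 5.09, 5.21 and 5.59 in WT (limma adjusted p = 0.340 over all probe sets). With values under the mark raised to it, the Elovl7 difference was 0.06.

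**Figure D3:**
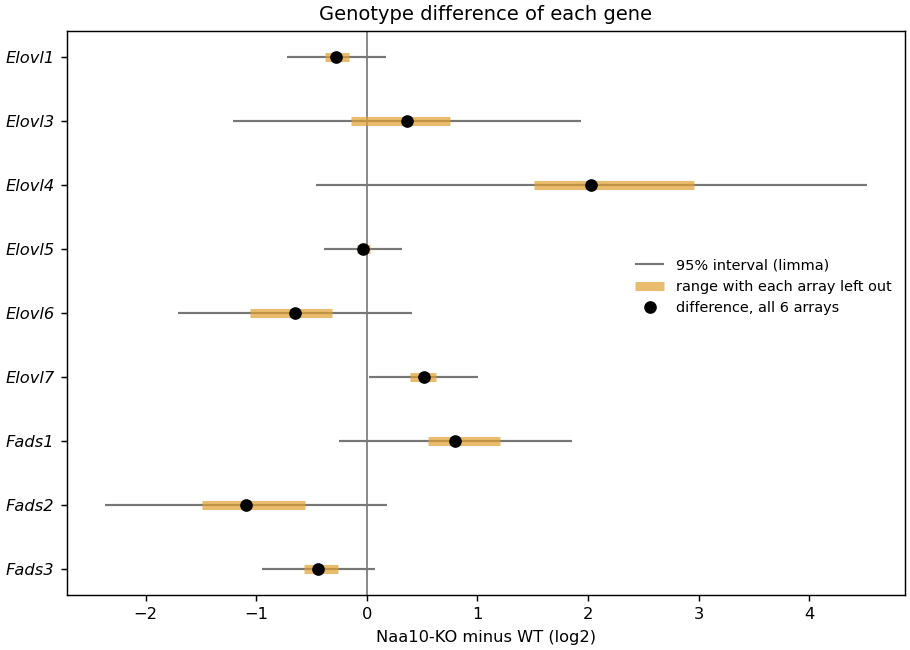
Log2 difference of Naa10-KO minus WT for each gene (point), with limma's 95% interval (line, not adjusted for the number of genes) and the range of the difference when each array was left out in turn (band). The interval reaches zero for 8 of the genes and lies just above it for Elovl7, and the band crosses zero for Elovl3 and Elovl5.

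**Figure D4:**
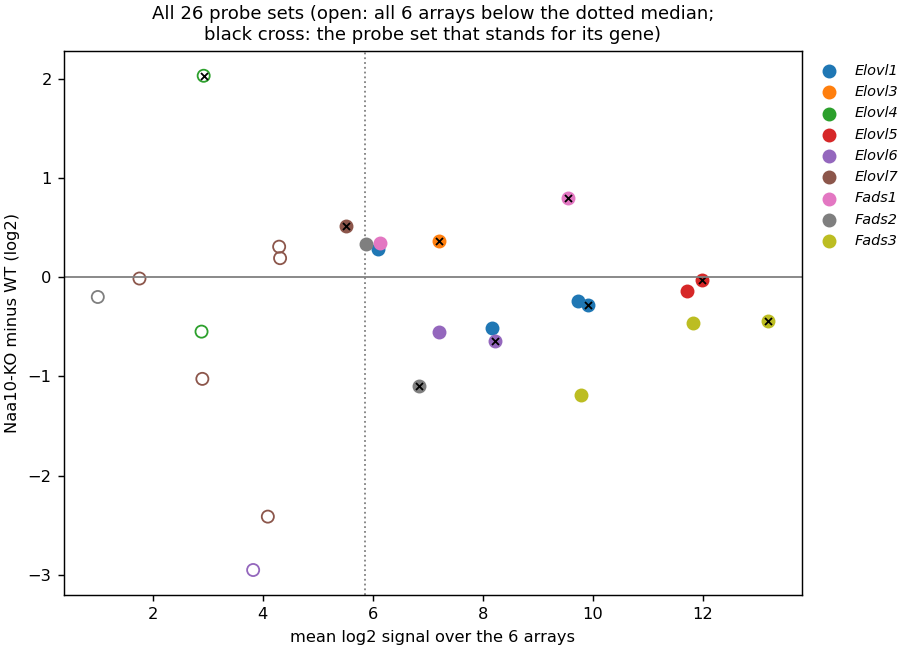
Difference of Naa10-KO minus WT against the mean log2 signal over the 6 arrays for all 26 probe sets of the 9 genes. Probe sets of Fads1, Fads3, Elovl5 and Elovl6 kept 1 sign each, while those of Elovl1, Elovl4, Elovl7 and Fads2 lie on both sides of zero.

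Across the 26 probe sets, 9 were below the mark on every array and 12 were above it on every array. Among genes with several probe sets, Fads1, with both higher, and Elovl5, Elovl6 and Fads3, with all lower, kept 1 sign. Elovl1, Elovl4, Elovl7 and Fads2 did not.

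The genes with the pattern most like that of Fads2, the member with the largest difference among those whose mean reached the mark, were sought over the 6 arrays among 11358 other genes with such means. Likeness was the Euclidean distance between log2 values centred on each gene's mean. The nearest were Gm10033 (0.58), Zfp711 (0.61), Ssc5d (0.62), Sapcd2 (0.64) and Mthfd2 (0.655), where a gene with no variation would lie at 1.93. All of these were lowest on Naa10-KO replicate 2, which the search itself favours, since Fads2 was lowest there. On that array Gm10033, Zfp711, Ssc5d and Sapcd2 were under the mark, at 5.06, 4.33, 5.09 and 4.77. For Elovl3 the nearest was Defa39 at 0.69, followed by Soga1, 4921531C22Rik, Zfp414 and Cplx1 up to 0.87, and a flat gene would lie at 1.80.

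The other genes of the pathway were read from the same fit over all genes, with 79 of 85 listed genes measured in 8 lists. None passed at an adjusted p of 0.05, and the lowest adjusted p was 0.216. At an unadjusted p of 0.05, 11 of the 79 passed, beside 9.2% of all genes. Groups were apart upward in 7 and downward in 15 of the 79, beside 10% and 8.14% of all genes. Means were lower in Naa10-KO for 45 of them, beside 8844 of all 18193 genes, with a median difference of -0.06.

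Genes that supply the elongases with malonyl-CoA and palmitate had a median difference of -0.24, with 5 of 9 means lower. Fasn, fatty acid synthase, was at 9.55, 10.34 and 10.19 in Naa10-KO, against 11.51, 11.55 and 11.25 in WT (limma adjusted p = 0.231). Me1, the malic enzyme that makes NADPH, and Slc25a1, the citrate carrier, differed by -0.61 and -1.17, and all Naa10-KO arrays of these 3 genes were below all WT arrays. The lowest WT array for all 3 was replicate 3, the WT array with the most muscle signal, and the part of muscle RNA was not tested. Elovl6 minus Fasn within an array was -1.96, -2.13 and -2.28 in Naa10-KO and -2.82, -2.34 and -3.51 in WT, higher by 0.76 with groups apart (exact permutation p = 0.1, adjusted p = 0.25). On these arrays Fasn was lower relative to Elovl6 in Naa10-KO, by a small margin between Naa10-KO replicate 3 and WT replicate 2. This pair, too, was chosen with results of these data known. Scd1 minus Elovl6 differed by 0.76 with overlapping groups (exact p = 0.3).

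After the condensation by an Elovl protein, a reductase, a dehydratase and a second reductase finish each round. Hsd17b12, the first reductase, differed by -0.25 with overlapping groups (-0.16 without WT replicate 2 and -0.40 without WT replicate 3). Hacd3, of the dehydratases, was at 10.77, 10.67 and 10.57 in Naa10-KO, against 10.46, 10.23 and 10.15 in WT, with all Naa10-KO arrays higher (difference 0.39, limma adjusted p = 0.542, and 0.16 with the mean of all probe sets). Tecr, the last reductase, was at 9.83, 10.48 and 10.78 in Naa10-KO, against 11.04, 11.47 and 10.84 in WT, with all Naa10-KO arrays lower (difference -0.75, limma adjusted p = 0.549). Without Naa10-KO replicate 1, the array with the raised Gapdh 3' minus 5' difference, the Tecr difference was -0.48, and the part of RNA quality was not tested. Over the 7 measured genes of these steps, 3 means were higher and 4 lower, and the median was -0.06.

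Other elongases and desaturases had 3 of 7 means higher and a median of -0.16. Scd2, a stearoyl-CoA desaturase, was at 9.30, 10.32 and 10.87 in Naa10-KO, against 12.44, 12.43 and 11.29 in WT (difference -1.89, limma adjusted p = 0.473), with groups apart. Scd1, another stearoyl-CoA desaturase, was not lower, with means of 15.68 in Naa10-KO and 15.56 in WT and overlapping groups (difference 0.115, limma adjusted p = 0.837). Elovl2, which elongates longer polyunsaturated chains than Elovl5, was below the mark on all arrays and differed by 1.73 (2.67 without Naa10-KO replicate 3), and Degs1, which desaturates dihydroceramide, by -0.48. Desaturases take electrons from cytochrome b5, and 4 of the 6 genes of that supply had lower means (median -0.20). Cyb5a, a cytochrome b5 among these 6, had overlapping groups, with means of 15.06 in Naa10-KO and 14.93 in WT (difference 0.13, limma adjusted p = 0.778). Cyb5b, the cytochrome b5 of the outer mitochondrial membrane, was at 10.90, 11.28 and 11.74 in Naa10-KO, against 12.66, 12.67 and 12.18 in WT (difference -1.20, limma adjusted p = 0.375). For both Scd2 and Cyb5b, WT replicate 3 was the lowest WT array and Naa10-KO replicate 1 the lowest of all 6 arrays. The parts of muscle RNA and of RNA quality were not tested. Cyb5r3, a cytochrome b5 reductase, differed by -0.59, and Cyb5r4 by 0.17. Without Naa10-KO replicate 1 the differences were -1.46 for Scd2, -0.99 for Cyb5b, -0.27 for Degs1, -0.36 for Cyb5r3 and 0.11 for Cyb5r4. With the mean of all probe sets they were -1.08 for Cyb5r3 and -0.76 for Cyb5b.

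Transcriptional regulators of these enzymes had a median of -0.002, with 7 of 15 means higher. Scap, the escort of the SREBP factors, differed by -0.48 with groups apart, Mbtps2, a protease that releases them, by 0.37 with groups apart, and Mlxipl, the carbohydrate-responsive factor ChREBP, by 0.58. Without 1 WT array these moved to -0.30 for Scap (without replicate 3) and 0.30 for Mlxipl (without replicate 2). Peroxisomal genes that shorten very long chains had 10 of 14 means lower (median -0.18). Ehhadh, an enzyme of that path, was at 10.77, 10.66 and 10.64 in Naa10-KO, against 9.38, 9.61 and 9.91 in WT, 2.08-fold higher and with the lowest adjusted p of the lists. Acox3, an acyl-CoA oxidase, differed by -0.66, and Acox2 by -1.87 with all arrays below the mark. These were -0.36 for Acox3 with low values raised to the mark and -1.20 for Acox2 without WT replicate 1.

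Genes that use the products completed the lists. Of ceramide synthases and related enzymes, 7 of 8 means were lower (median -0.08), with Cers4 at 9.29, 9.51 and 9.79 in Naa10-KO, against 10.29, 10.23 and 10.15 in WT (difference -0.69, limma adjusted p = 0.427). Sptlc1 and Ugcg differed by -0.08 and -0.10, and the median shows that most of these means were lower by little. Genes that activate polyunsaturated acids or build them into phospholipids had 10 of 13 means higher (median 0.17). Acsl6, an acyl-CoA synthetase, was at 6.40, 6.42 and 5.71 in Naa10-KO, against 2.05, 1.08 and 4.20 in WT (difference 3.73, limma adjusted p = 0.354), with 4 of its 6 values below the mark. With low values raised to the mark the Acsl6 difference was 0.37, and with the mean of all probe sets it was 1.55. Its highest WT value was on replicate 3, as was that of the muscle genes, and the part of muscle RNA was not tested. Acsl3 differed by 0.65 and Pla2g4a, the phospholipase that frees arachidonate, by 0.33, both with groups apart.

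**Figure D5:**
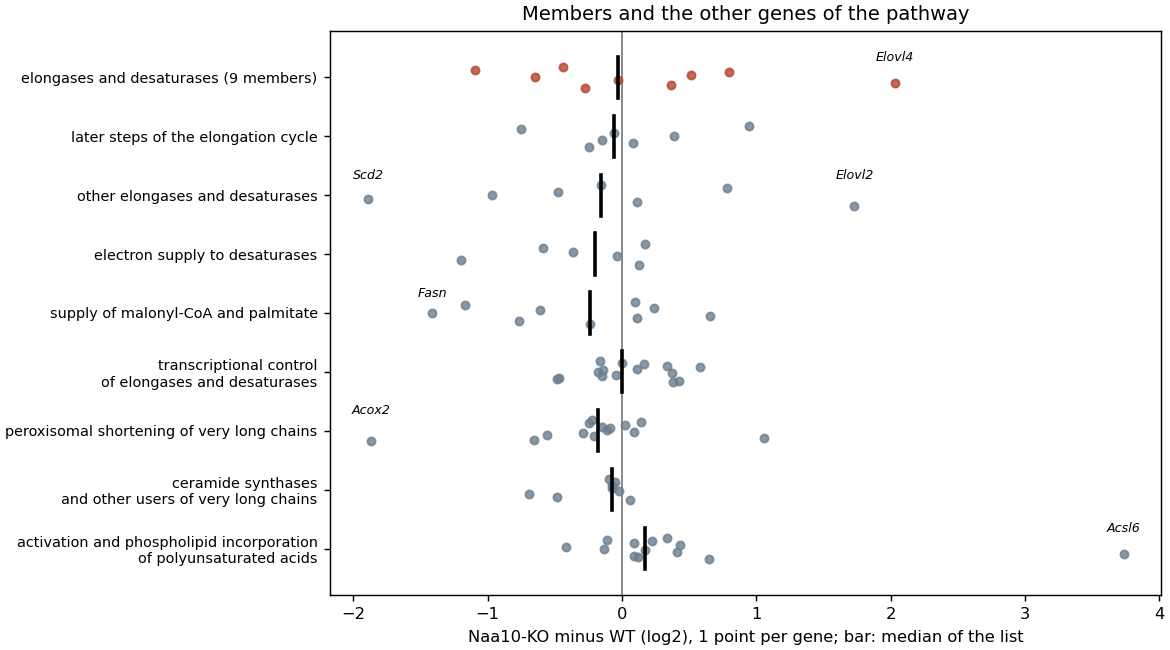
Log2 difference of Naa10-KO minus WT for the 9 members (red) and for the measured genes of 8 pathway lists (grey), 1 point per gene, with the median of each group as a bar. List medians lie between -0.24 and 0.17, and the members spread to both sides of zero.

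For markers of the remaining cell types in the depot, the range of the list mean over the Naa10-KO arrays overlapped that over the WT arrays. Means over 11 skin and sebaceous markers, the tissue in which Elovl3 and Elovl4 are best known, were 5.14 to 5.22 in Naa10-KO and 5.09 to 5.49 in WT, and Krt5, Krt14, Krt1, Krt15 and Dsp were below the mark on all arrays. Means were 10.1 to 10.3 in both genotypes for 11 macrophage markers, and 8.60 to 8.77 in Naa10-KO against 8.49 to 8.80 in WT for 8 endothelial markers. Nerve and Schwann cell markers (8 measured) averaged 6.42 to 6.99 in Naa10-KO and 5.98 to 7.04 in WT. Those of progenitors and fibroblasts (8) averaged 11.40 to 12.02 in Naa10-KO and 11.96 to 12.00 in WT. Lymphocyte markers (8) averaged 5.94 to 7.91 in Naa10-KO and 6.78 to 7.70 in WT, and markers of red blood cells (3) averaged 3.63 to 5.46 in Naa10-KO and 3.98 to 5.28 in WT.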

How the data were processed

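RNA was measured on 6 Affymetrix Mouse Genome 430 2.0 arrays, 3 Naa10-KO and 3 WT, from 3 µg of total RNA each, per the labels. The deposited table holds log2 signals of 45101 probe sets; on the linear scale the mean after trimming 2% at each end was 500 on every array, so each array had been scaled to 1 level. The software that made them is not known here. Probe sets were named through a platform annotation of 2016, and 34741 of the 34945 with 1 gene matched a RefSeq table (GRCm38.p6). The 932 with several genes, the 9160 with none and 64 controls were not tested.

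Values were tested as deposited with limma 3.58.1 in R 4.3.3 (genotype alone, 2-sided, Benjamini-Hochberg over 18193 genes, threshold 0.05, SE and 95% intervals moderated and unadjusted). The number of arrays limits the precision. The fit was also run on simulated data with planted differences and independent noise. The checks were that mean estimates lay near those differences and that recovery rose with their size. Uneven muscle RNA and RNA quality were not simulated. Named from each pathway list were the 3 genes with the smallest unadjusted p and any gene past the threshold. Scd1 and Cyb5a were added to these after the values were seen. Members, lists and this rule were chosen with earlier results of these data known. Same-numbered arrays come from different mice, and the correlations of their deviations were -0.007, -0.006 and -0.031, so no block was used. Alternatives were other scalings, a filter and a floor on low values, other choices of probe set, trend and robust options, array weights, a replicate block and each array left out.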

Additional observations from a re-analysis of the deposited data

How the results depend on the processing

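No member passed an adjusted p of 0.05 in any of 16 alternative fits, where adjusted p-values lay between 0.233 and 0.992, nor when each probe set was tested alone. With trend and robust options, the replicate block and the filter on low values, member differences were unchanged by construction and could not change sign. Of 158 refitted member differences, these included, 148 kept their sign. Those that turned were Elovl7 with the mean of all probe sets (-0.41), Elovl5 without WT replicate 1 (0.03, in a range of -0.09 to 0.03 with 1 array left out), Elovl3 without WT replicate 3 (-0.15, in a range of -0.15 to 0.75) and without Naa10-KO replicate 2 (-0.08), and single probe sets of Elovl1 (0.28), Elovl4 (-0.55), Elovl7 (-0.01, -2.41 and -1.02) and Fads2 (0.33). The median of the members was -0.28 with the filter on low values (7 members left), -0.16 with low values raised to the mark (8 left) and -0.18 with the mean of all probe sets. Members with groups apart numbered 3 to 6 with 1 array left out and 6 without WT replicate 3 and Naa10-KO replicate 1 together. Leaving out an array cannot make separate groups overlap, so these counts could not fall below 3. Of all genes, 25.6% were apart without Naa10-KO replicate 1, 31.3% without Naa10-KO replicate 3 and 31.7% without WT replicate 3. The share was 42.8% without WT replicate 3 and Naa10-KO replicate 1 together.

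Calls over all genes, 16 higher and 5 lower, were 70 and 5 with the filter, 104 and 13 with the floor, 102 and 35 with trend and robust options, 27 and 7 with array weights, and 14 and 3 after quantile normalization. They were 0 in both directions with the mean of all probe sets, without WT replicate 3 and Naa10-KO replicate 1 together, and with the replicate block, in which the members' differences were unchanged by construction; the cause was not tested. With 1 array left out they ranged from 0 to 29 higher and from 0 to 1 lower in limma. Pathway genes called numbered 0 with all 6 arrays, 3 with trend and robust options (Fasn, adjusted p = 0.00401, Ehhadh, 0.00776, and Cyb5b, 0.0174) and 1 with the floor (Ehhadh, 0.0465). Sptlc1 turned to 0.11 with the mean of all probe sets, to 0.02 without WT replicate 2 and to 0.01 without Naa10-KO replicate 3 (lowest -0.14 with 1 array left out), and Ugcg to 0.00 without Naa10-KO replicate 2 (lowest -0.17). Signals below the mark limit what can be said of Elovl4 and Elovl7.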
